A study of Homo sapiens with 3 samples.

Results

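The 45 genes described here encode the heat shock and endoplasmic reticulum (ER) chaperones of human cells, with their co-chaperones and regulators. They were chosen by gene symbol, with earlier results of these data known. All 45 were among the 18856 genes listed in at least 1 of the 3 libraries of this series. By role they fall into 12 cytosolic chaperones and co-chaperones, 18 ER proteins, 3 mitochondrial chaperones, 8 subunits of the CCT ring and 4 regulators. The series compared low-input RNA-seq methods on 2 human lung cell lines. HBE LIEA and A549 LIEA are libraries made by LIEA (Low-Input, Equal-Amplification), in which mRNA is fragmented and ligated to adapters before amplification, and were read on an Ion Torrent sequencer. HBE Smart-seq2 is a library of full-length cDNA that was primed with oligo-dT and amplified before fragmentation, and was read on an Illumina sequencer. Each was made from 10 pg of polyA+ mRNA diluted from a bulk preparation of 1 cell line: HBE, a human bronchial epithelial line, or A549, a lung adenocarcinoma line. The labels give no treatment or heat shock for either line.

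Chaperones bind unfolded or partly folded proteins and release them, in cycles mostly driven by ATP, so that the proteins can fold, cross a membrane or be degraded. In the cytosol, heat shock factor HSF1 switches on HSP70 and HSP90 family genes when unfolded proteins accumulate. In the ER, the sensors ERN1 (IRE1), ATF6 and EIF2AK3 (PERK) start the unfolded protein response, which raises chaperones such as HSPA5 (BiP) and the machinery that removes misfolded proteins. Epithelial cells that secrete or divide keep many of these genes on without stress.

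Levels are given as log2 rpkM, the log2 of reads per kilobase of transcript and per 1000000 mapped reads. The whole reads behind each value were recovered from the deposited values, with totals of 4605855 reads in HBE LIEA, 4154060 in A549 LIEA and 9845150 in HBE Smart-seq2. Each condition had 1 library, so no difference has a replicate check and no test was made. Intervals are exact 95% intervals that cover counting error only. A difference of at least 2-fold between libraries with at least 10 reads in 1 of them was used to count genes. The epithelial markers KRT8, KRT18, KRT19, EPCAM and CDH1 were all detected with at least 10 reads in the 3 libraries. The basal airway markers KRT5, KRT14, KRT15 and TP63 summed to 624 rpkM in HBE LIEA, 465 in HBE Smart-seq2 and 10.9 in A549 LIEA. Of the alveolar type II markers, SFTPA1 and SFTPC were listed in none of the libraries, A549 included. SFTPB had 21 reads in HBE LIEA, 20 in A549 LIEA and 49 in HBE Smart-seq2. ABCA3 was highest in A549 LIEA, with levels of 1.26, 3.80 and -1.57 log2 rpkM in the same order. Of the leukocyte markers only CD68 had at least 10 reads, of the fibroblast markers only COL1A1, and of the erythroid markers none. What these markers contribute to the differences below was not tested. In RNA from many cells, fewer cells that express a gene and less RNA of it per cell cannot be told apart.

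All 45 genes were listed in every library. With at least 10 reads, 44 were detected in HBE LIEA and 45 in each of the other libraries, the exception being the ER co-chaperone DNAJB9 with 9 reads in HBE LIEA. A gene's reads are known only up to a whole factor, set from the annotated transcript length, and with a factor of 2, chosen after seeing the data, DNAJB9 would have 18 reads and all 45 genes would be detected. Together the 45 genes took 1.63% of the mapped reads in HBE LIEA, 1.51% in A549 LIEA and 1.91% in HBE Smart-seq2. Their levels spanned 0.62 to 9.62 log2 rpkM in HBE LIEA, 1.47 to 9.49 in A549 LIEA and -0.49 to 9.59 in HBE Smart-seq2. The median level was 6.06, 6.25 and 6.55 log2 rpkM, in the same order. The transcripts differ in length from 874 nt for SDF2L1 to 8010 nt for ERN1, and levels are compared between genes only per length.

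**Figure D1:**
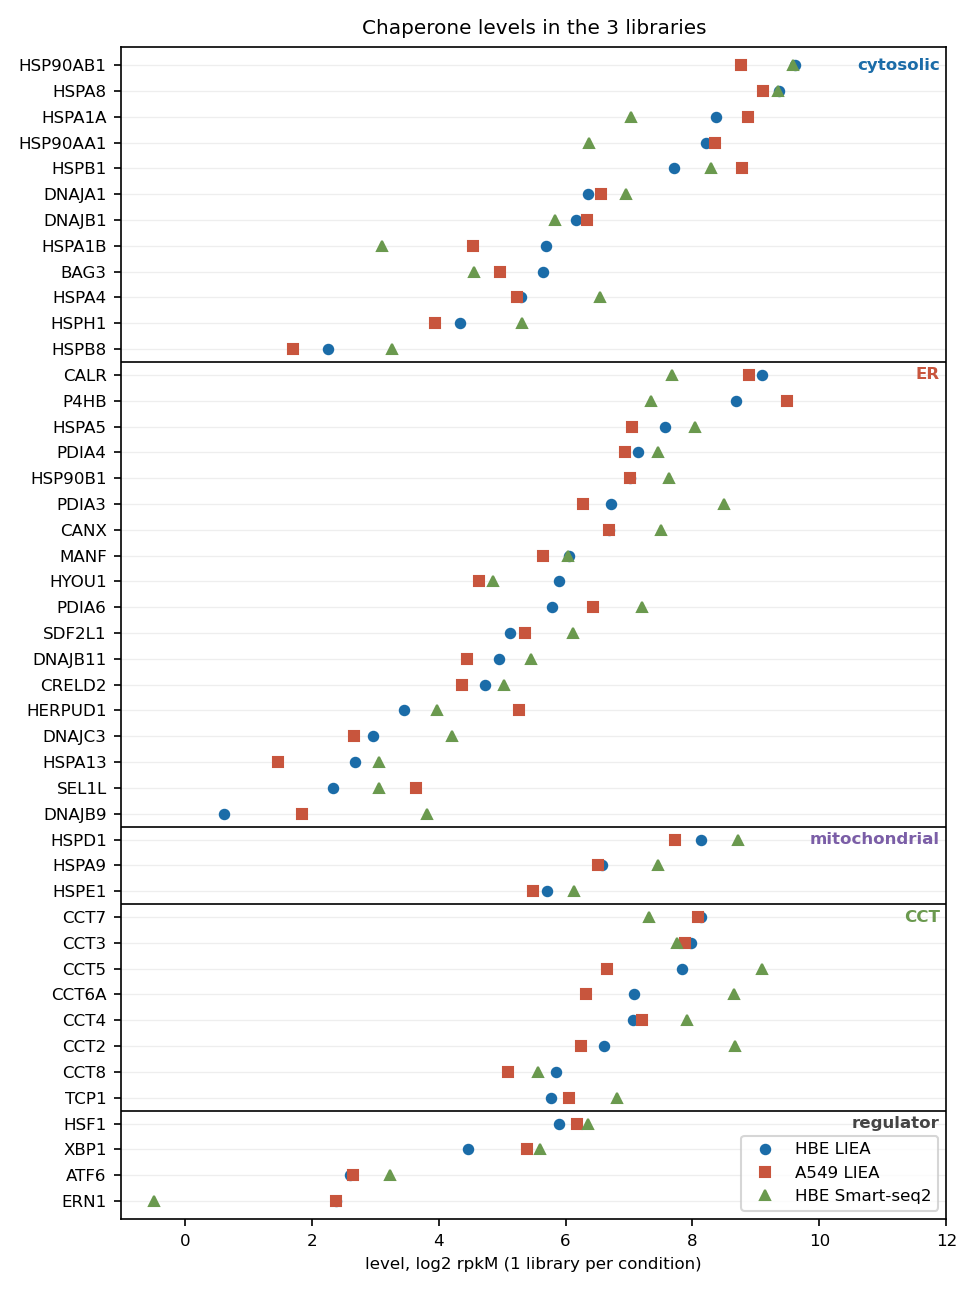
Level of each of the 45 genes in log2 rpkM (x axis) in HBE LIEA (circles), A549 LIEA (squares) and HBE Smart-seq2 (triangles), grouped by class and ordered by HBE LIEA; where circle and square coincide the circle is hidden. HSPA8 and HSP90AB1 lie at 8.77 or above in all libraries, and ERN1 in HBE Smart-seq2 is the lowest value at -0.49.

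Among the cytosolic chaperones, the constitutive members of the HSP90 and HSP70 families had the highest levels in both HBE libraries, and in A549 LIEA HSPA8 was the highest. HSP90AB1, the constitutive cytosolic HSP90, had a level of 9.62 log2 rpkM in HBE LIEA, 8.77 in A549 LIEA and 9.59 in HBE Smart-seq2. The constitutive HSP70 HSPA8, which also uncoats clathrin vesicles, had levels of 9.36, 9.11 and 9.35 log2 rpkM. As deposited, both genes were nearly level between the methods, with log2 differences of 0.03 (-0.01 to 0.06) and 0.01 (-0.03 to 0.05) for LIEA minus Smart-seq2 of HBE. With each library centred on the median of the genes listed in all libraries, they came to -0.35 and -0.36. In TPM, rpkM rescaled to the same sum in each library, they came to 0.23 and 0.21. HSP90AB1 was the 17th gene by reads in HBE LIEA, with 9843 reads, and the 34th in HBE Smart-seq2. In A549 LIEA it was lower by a log2 difference of -0.85 (-0.90 to -0.80), short of 2-fold as deposited and -1.01 in TPM.

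The stress-inducible partners varied more between libraries. HSP90AA1, the inducible HSP90, had levels of 8.22 log2 rpkM in HBE LIEA, 8.36 in A549 LIEA and 6.37 in HBE Smart-seq2. Its level was therefore 0.379 times that of HSP90AB1 in HBE LIEA, 0.754 times in A549 LIEA and 0.107 times in HBE Smart-seq2. The order of the HSP90 pair was the same in the 3 libraries, and the gap was narrowest in A549 LIEA. HSPA1A, the inducible HSP70, had levels of 8.37, 8.87 and 7.03 log2 rpkM in the same order, and HSPA1B had 5.70, 4.54 and 3.11. HSPA8 had 2 times the rpkM of HSPA1A in HBE LIEA, 1.18 times in A549 LIEA and 5 times in HBE Smart-seq2.

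HSPA1A and HSPA1B encode nearly the same protein and lie side by side on the plus strand of chromosome 6, at chr6:31783320-31785723 and chr6:31795515-31798031 of GRCh37. Of the 31-base words of the HSPA1A transcript, 76.9% also occur in HSPA1B, and 73.3% of those of HSPA1B occur in HSPA1A. How reads that match both were shared out is not explained in the sources used here, so the separate values are uncertain. HSPA1B held 14.1% of the reads of the pair in HBE LIEA, 4.91% in A549 LIEA and 6.41% in HBE Smart-seq2. Summed over the pair, the level was 8.58 log2 rpkM in HBE LIEA, 8.94 in A549 LIEA and 7.12 in HBE Smart-seq2. On the sum, A549 was higher than HBE by a log2 difference of 0.36, whereas HSPA1B alone was lower by -1.16 (-1.39 to -0.95). Between methods the sum was higher in LIEA by a log2 difference of 1.45, in the same direction as each gene alone.

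The small heat shock protein HSPB1 (HSP27), which holds unfolded proteins without ATP, had levels of 7.71 log2 rpkM in HBE LIEA, 8.78 in A549 LIEA and 8.29 in HBE Smart-seq2. Its relative HSPB8, which works with BAG3 in selective autophagy, was far lower at 2.25, 1.70 and 3.26 log2 rpkM. BAG3 itself had levels of 5.65, 4.96 and 4.55 log2 rpkM. The level of HSPB8 rested on 44 reads in HBE LIEA and 27 in A549 LIEA, and its log2 difference between the lines, -0.56 (-1.30 to 0.17), was not distinguishable from 0 at this depth. The J-domain co-chaperones DNAJA1 and DNAJB1, which bring clients to HSP70, were at mid range. DNAJA1 had levels of 6.36, 6.56 and 6.95 log2 rpkM, and DNAJB1 had 6.17, 6.34 and 5.84. The nucleotide exchange factors of HSP70 had lower levels than both in the LIEA libraries, with HSPA4 at 5.30, 5.23 and 6.55 log2 rpkM and HSPH1 at 4.33, 3.95 and 5.31. HSPA8 exceeded HSPH1 by 32.7-fold in rpkM in HBE LIEA, 35.6-fold in A549 LIEA and 16.5-fold in HBE Smart-seq2.

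In the ER, the calcium-binding lectin chaperone CALR (calreticulin) and the disulfide isomerase P4HB had the highest levels in HBE LIEA. CALR had levels of 9.09 log2 rpkM in HBE LIEA, 8.89 in A549 LIEA and 7.68 in HBE Smart-seq2. P4HB had levels of 8.69, 9.49 and 7.35 log2 rpkM, and in A549 LIEA it was the highest of all 45 genes. In HBE Smart-seq2 the highest ER gene was another disulfide isomerase, PDIA3, which assists glycoprotein folding, at 8.50 log2 rpkM against 6.71 in HBE LIEA and 6.27 in A549 LIEA. The order of P4HB and PDIA3 thus turned with the method. P4HB had 3.93 times the rpkM of PDIA3 in HBE LIEA and 9.37 times in A549 LIEA, but 0.451 times in HBE Smart-seq2. CALR likewise had 5.29 times the rpkM of its membrane-bound relative CANX (calnexin) in HBE LIEA and 4.61 times in A549 LIEA, against 1.13 times in HBE Smart-seq2.

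HSPA5 (BiP), the HSP70 of the ER and the repressor of the unfolded protein response sensors, had levels of 7.57 log2 rpkM in HBE LIEA, 7.05 in A549 LIEA and 8.04 in HBE Smart-seq2. HSP90B1 (GRP94), the HSP90 of the ER, had 7.01, 7.01 and 7.63 log2 rpkM. Their rpkM ratio, HSP90B1 over HSPA5, stayed between 0.675 and 0.972. CANX had levels of 6.68, 6.68 and 7.50 log2 rpkM, and PDIA4 had 7.14, 6.94 and 7.45. HYOU1, the nucleotide exchange factor of HSPA5, had 5.90, 4.63 and 4.86 log2 rpkM, so that HSPA5 exceeded it by 3.20-fold, 5.35-fold and 9.09-fold. PDIA6, which acts with HSPA5 on disulfide bonds, had levels of 5.79, 6.43 and 7.21 log2 rpkM.

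The remaining ER genes are mostly cofactors and parts of the degradation machinery. The secreted factor MANF had 6.06, 5.64 and 6.04 log2 rpkM, the HSPA5 cofactors SDF2L1 and DNAJB11 had 5.12, 5.36 and 6.11, and 4.95, 4.44 and 5.45, and CRELD2 had 4.73, 4.37 and 5.03. HERPUD1 and SEL1L, scaffolds of the membrane complex that passes misfolded proteins out of the ER, had 3.45, 5.27 and 3.97, and 2.33, 3.65 and 3.06 log2 rpkM. The co-chaperone DNAJC3, an inhibitor of PERK, had 2.96, 2.66 and 4.21, and HSPA13 had 2.68, 1.47 and 3.06. DNAJB9, which represses ERN1 through HSPA5, was the lowest ER gene in HBE LIEA at 0.62 log2 rpkM, with 1.85 in A549 LIEA and 3.82 in HBE Smart-seq2.

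The mitochondrial chaperonin HSPD1 (HSP60) had levels of 8.13 log2 rpkM in HBE LIEA, 7.72 in A549 LIEA and 8.72 in HBE Smart-seq2. Its lid HSPE1 (HSP10) had 5.71, 5.48 and 6.14 log2 rpkM, and the mitochondrial HSP70 HSPA9 (mortalin) had 6.58, 6.51 and 7.45. HSPD1 exceeded HSPE1 by 5.34-fold in rpkM in HBE LIEA, 4.72-fold in A549 LIEA and 5.97-fold in HBE Smart-seq2, the steadiest ratio among the pairs described here. The pair lies head to head on chromosome 2, HSPD1 on the minus strand at chr2:198351308-198381461 and HSPE1 on the plus strand at chr2:198364864-198368173 of GRCh37, and the annotated spans overlap. HSPE1 also shares 20.4% of its 31-base words with the read-through gene HSPE1-MOB4, which is listed separately. All 3 mitochondrial genes had lower values in A549 LIEA than in HBE LIEA and lower values in HBE LIEA than in HBE Smart-seq2, none by 2-fold. Between the cell lines only HSPD1 kept this sign under every scaling, since HSPA9 came to 0.07 in log2 difference after centring and HSPE1 to 0.08 relative to genes of like GC content, and between methods HSPE1 turned to 0.31 relative to such genes. Between the lines the counting intervals of HSPA9 (-0.17 to 0.05) and HSPE1 (-0.52 to 0.06) held 0. Over all genes compared, 7229 of 12952 were lower in A549 LIEA than in HBE LIEA, and 6493 of 13271 lower in HBE LIEA than in HBE Smart-seq2.

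Besides the pair of HSPA1 genes and HSPE1, sequence is shared at over 10% of words by PDIA3, HSP90B1 and CCT6A, mostly with the pseudogenes PDIA3P1, HSP90B2P and CCT6P3. No 31-base word of 28 of the 45 genes occurs in another listed gene. Whether reads moved between these copies was not tested.

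CCT is a ring-shaped chaperonin of the cytosol that folds actin and tubulin, and each ring carries 1 copy of every subunit. The mRNA levels of the 8 subunits were not equal in any library. In HBE LIEA they ran from 5.77 log2 rpkM for TCP1 to 8.13 for CCT7, a 5.11-fold range. In A549 LIEA they ran from 5.09 for CCT8 to 8.08 for CCT7, a 7.93-fold range, and in HBE Smart-seq2 from 5.56 for CCT8 to 9.09 for CCT5, an 11.6-fold range. The SD of the 8 levels was 0.92, 0.99 and 1.16 log2 rpkM. CCT8 and TCP1 were the lowest subunits in HBE LIEA and A549 LIEA, with CCT8 at 5.85, 5.09 and 5.56 and TCP1 at 5.77, 6.06 and 6.81 log2 rpkM over the 3 libraries. CCT3 was the steadiest subunit at 7.97, 7.89 and 7.76 log2 rpkM, and CCT4 had 7.07, 7.20 and 7.92.

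The order of the subunits differed between methods, and not only through the other 4. For LIEA minus Smart-seq2 of HBE, TCP1 had a log2 difference of -1.04 (-1.16 to -0.91) and CCT4 of -0.85 (-0.93 to -0.77). CCT7 had levels of 8.13 log2 rpkM in HBE LIEA, 8.08 in A549 LIEA and 7.31 in HBE Smart-seq2. CCT2 had 6.61, 6.25 and 8.67, CCT5 had 7.84, 6.66 and 9.09, and CCT6A had 7.08, 6.33 and 8.65 log2 rpkM. CCT7 was thus the highest subunit in both LIEA libraries, whereas in HBE Smart-seq2 it exceeded only TCP1 and CCT8. The 8 subunits together took 0.307% of the mapped reads in HBE LIEA (0.302 to 0.312%, Wilson), 0.240% in A549 LIEA (0.235 to 0.245%) and 0.558% in HBE Smart-seq2 (0.553 to 0.562%).

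**Figure D2:**
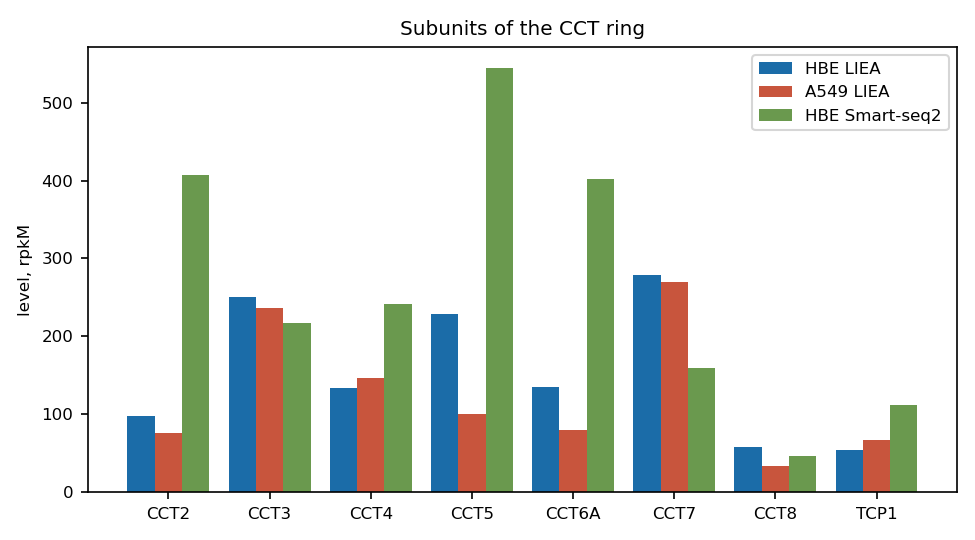
Level in rpkM (y axis, from 0) of the 8 CCT subunits in HBE LIEA, A549 LIEA and HBE Smart-seq2, 1 library each. CCT2, CCT5 and CCT6A reach 407, 544 and 402 rpkM in HBE Smart-seq2, while CCT3 lies between 217 and 250 rpkM in the 3 libraries.

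Of the regulators, HSF1, the heat shock transcription factor, had levels of 5.90 log2 rpkM in HBE LIEA, 6.18 in A549 LIEA and 6.36 in HBE Smart-seq2. XBP1, the factor whose mRNA is spliced by ERN1, had 4.46, 5.39 and 5.59 log2 rpkM, and the membrane-bound factor ATF6 had 2.60, 2.65 and 3.23. These values sum the splice forms of XBP1, so its spliced share is not measured here. ERN1 had 2.38, 2.39 and -0.49 log2 rpkM, from 192, 174 and 56 reads. It was nearly level between the cell lines by LIEA and 7.33-fold lower by Smart-seq2. The reads of ERN1 and HSP90B1 are the only ones among the 45 genes that rest on a factor of 2 chosen from the annotated transcript length, and their levels do not depend on it.

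A549 and HBE were compared by LIEA. Of the 45 genes, 4 were at least 2-fold higher in A549 (8.89%), against 18.0% of the 12952 genes compared, and 4 were at least 2-fold lower (8.89%), against 20.2%. The median log2 difference of the 45 genes was -0.08, against -0.15 over all genes compared, and after centring it was 0.05. The median size of the difference regardless of sign was 0.38 log2 against 0.76. Counting intervals lay above 0 for 14 genes, below 0 for 19 and held 0 for 12. Such intervals narrow with depth and were not counted over all genes, so these counts have no share to be set against. The share past 2-fold was also taken at higher depth. Where both libraries had at least 100 reads for a gene, a limit set after seeing the data, 2 of 41 members were higher (4.88%) against 8.87% of 5820 genes, and 3 were lower (7.32%) against 13.2%. The median size of the difference was 0.36 for these 41 members and 0.54 for the 5820 genes, in log2.

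**Figure D3:**
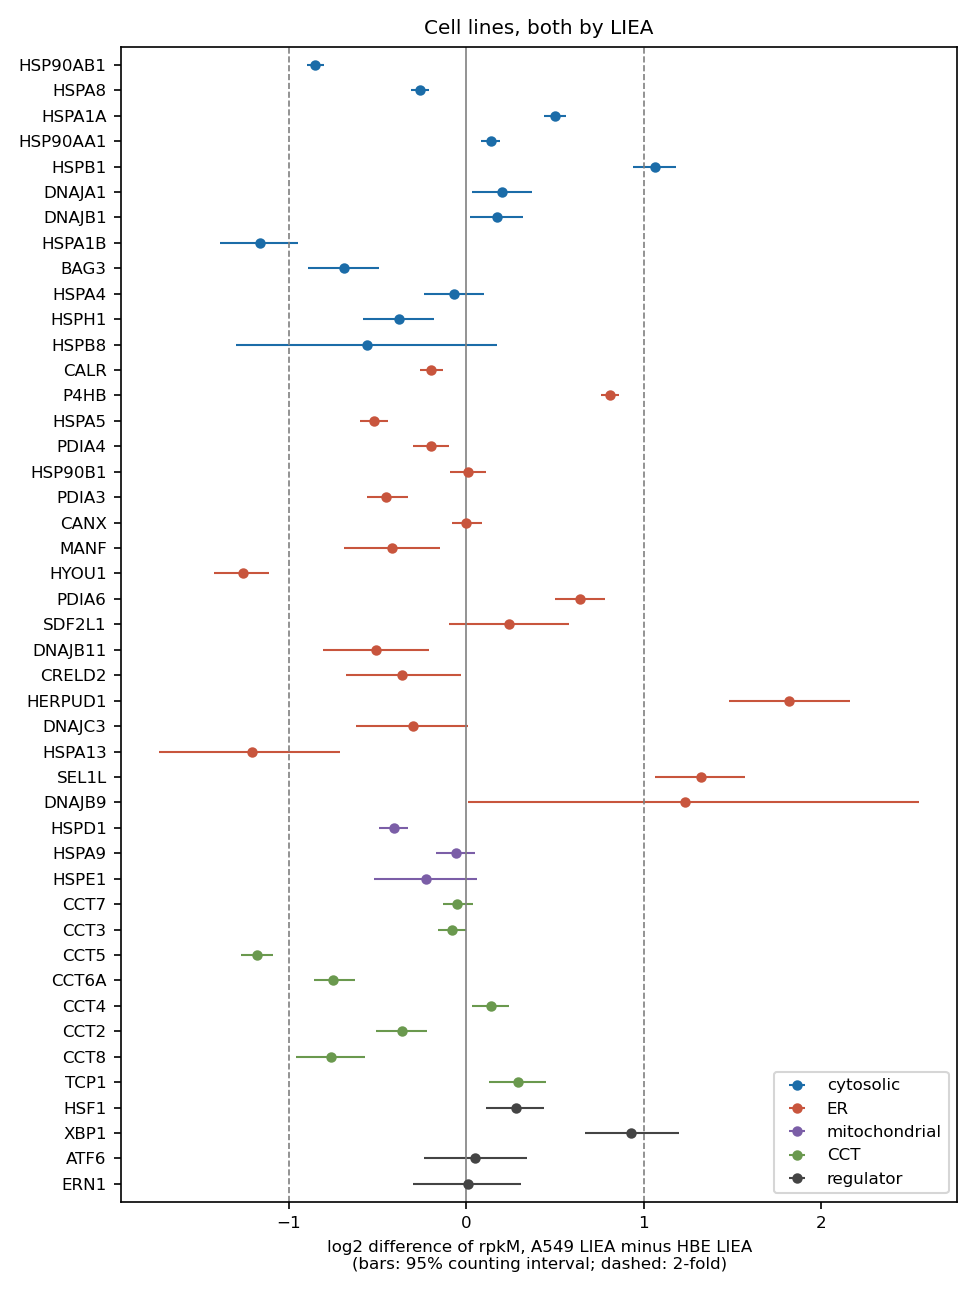
Log2 difference of rpkM, A549 LIEA minus HBE LIEA (x axis), for the 45 genes, with exact 95% counting intervals and dashed lines at 2-fold. HERPUD1 at 1.82 and SEL1L at 1.32 lie farthest to the right with intervals wholly above 2-fold, HYOU1 at -1.26 farthest to the left, and the interval of DNAJB9 is the widest.

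The genes higher in A549 were 3 ER genes and HSPB1. HERPUD1 had 97 reads in HBE LIEA and 308 in A549 LIEA, a log2 difference of 1.82 (1.48 to 2.16), or 3.52-fold. SEL1L, its partner in ER-associated degradation, had 184 and 413 reads, a log2 difference of 1.32 (1.06 to 1.57). Both genes were also higher in A549 LIEA than in HBE Smart-seq2, whose levels stood at 3.97 and 3.06 log2 rpkM. HSPB1 was higher by a log2 difference of 1.06 (0.94 to 1.18) and again exceeded both HBE libraries, but it fell below 2-fold in TPM (0.90). DNAJB9 rested on 9 reads in HBE LIEA and 19 in A549 LIEA, with a log2 difference of 1.23 (0.01 to 2.55) that came to 0.86 on the log2(rpkM + 1) scale, and HBE Smart-seq2 was higher than A549. With a factor of 2 for DNAJB9 its reads would be 18 and 38 and the interval 0.38 to 2.12. XBP1 lay just short of 2-fold, at a log2 difference of 0.93 (0.67 to 1.20) that came to 1.06 after centring each library on the median of shared genes, and P4HB at 0.81 (0.76 to 0.86).

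The genes lower in A549 came from different compartments. HYOU1 had 1275 reads in HBE LIEA and 479 in A549 LIEA, a log2 difference of -1.26 (-1.42 to -1.11). HSPA13, an ER and microsomal HSP70, had 118 and 46 reads and a log2 difference of -1.21 (-1.73 to -0.71), which was -0.90 relative to genes of like GC content and -0.98 on the log2(rpkM + 1) scale. CCT5 had 3588 and 1427 reads and a log2 difference of -1.18 (-1.27 to -1.09). HSPA1B had 604 and 243 reads, with the limit on its sequence given above. A549 lay below both HBE libraries for HYOU1, HSPA13 and CCT5, and between them for HSPA1B. Against both HBE libraries, 3 of the 45 genes were at least 2-fold higher in A549 LIEA than in HBE LIEA and above both HBE values, against 15.2% of 12663 genes, and 3 were at least 2-fold lower and below both, against 16.1%. Of the 4 genes just outside 2-fold, HSP90AB1 and CCT8 were lower by log2 differences of -0.85 and -0.76.

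By class, 3 of the 18 ER genes were at least 2-fold higher and 2 lower, against the 18.0% and 20.2% of all genes, with a class median of -0.20. The cytosolic genes held 1 in each direction with a median log2 difference of -0.16 over 12 (0.02 relative to genes of like GC content), and the CCT subunits 1 lower with a median of -0.22 over 8. All 4 regulators had positive log2 differences, from 0.01 for ERN1 to 0.93 for XBP1, none of them 2-fold, though in TPM ATF6 and ERN1 turned to -0.11 and -0.15. The counting intervals of ERN1 (-0.30 to 0.31) and ATF6 (-0.24 to 0.34) held 0. Over all genes compared, 5723 of 12952 had positive differences. Within the ER, genes that act together differed by unequal amounts. HYOU1 was lower by -1.26 and its partner HSPA5 by -0.52 (-0.60 to -0.44), and HSP90B1 was at 0.01 (-0.09 to 0.11) in log2 difference. Of the disulfide isomerases, PDIA6 was higher by 0.64 (0.50 to 0.78) in log2 difference while PDIA3 was lower by -0.45 (-0.56 to -0.33).

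The 2 methods were compared on HBE mRNA, and this comparison shares the HBE LIEA library with that of the cell lines. By LIEA against Smart-seq2, 8 of the 45 genes were at least 2-fold higher (17.8%), against 28.1% of the 13271 genes compared, and 11 were at least 2-fold lower (24.4%), against 21.9%. The split is sensitive to the scale: with each library centred on the median of the genes listed in all libraries, 4 were higher and 18 lower. The share of all genes past 2-fold was not taken on that scale, so the uncentred shares are no measure for these counts. That centring moves the median of all genes by -0.37 in this comparison and by 0.13 between the cell lines, and rescaling to TPM moves them by 0.20 and -0.16. The median log2 difference of the 45 genes was -0.52, against 0.04 over all genes compared, and after centring -0.89 against -0.33. Counting intervals, on the deposited scale, lay above 0 for 12 genes, below 0 for 30 and held 0 for HSPA8, HSP90AB1 and MANF. They again were not counted over all genes.

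The genes higher by LIEA were led by ERN1, with a log2 difference of 2.87 (2.44 to 3.33), and HSPA1B, with 2.59 (2.37 to 2.82). HSP90AA1 followed with 5341 reads by LIEA against 3163 of a larger total by Smart-seq2, a log2 difference of 1.85 (1.79 to 1.92). CALR had 1.41 (1.34 to 1.47), HSPA1A 1.34 (1.27 to 1.40) and P4HB 1.33 (1.27 to 1.39). BAG3, with 1.10 (0.93 to 1.27), and HYOU1, with 1.04 (0.93 to 1.15), completed the list. ERN1, HSPA1B, HSP90AA1 and CALR were beyond 2-fold after centring, in TPM and relative to genes of like GC content, and HSPA1A, P4HB, BAG3 and HYOU1 were not under all of these, with lowest values of 0.57, 0.76, 0.53 and 0.47.

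The genes lower by LIEA were led by DNAJB9, with 9 reads by LIEA and 176 by Smart-seq2, a log2 difference of -3.19 (-4.35 to -2.24). CCT2 followed at -2.06 (-2.16 to -1.96), PDIA3 at -1.79 (-1.87 to -1.71), CCT6A at -1.57 (-1.65 to -1.50) and PDIA6 at -1.42 (-1.54 to -1.30). These 5 genes and CCT5, at -1.25 (-1.30 to -1.20), were beyond 2-fold under each rescaling. The other 5 were not: HSPA4 at -1.25, DNAJC3 at -1.24, XBP1 at -1.14, TCP1 at -1.04 and HSPB8 at -1.01 came to -0.91, -0.68, -0.94, -0.70 and -0.81 in log2 difference under the rescaling nearest to 0. SDF2L1 and HSPH1 lay just short of 2-fold, at log2 differences of -0.99 and -0.98.

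The difference between methods varied with the base composition of the transcripts. Spearman's rho between GC content and log2 difference was 0.496 over the 45 genes and 0.368 over 12901 genes, whose points share the 2 libraries. The 18 genes below 45% GC had a median log2 difference of -0.83, the 18 genes at 45 to 55% had -0.15 and the 9 genes above 55% had 1.04. Over all genes the medians in the same ranges were -0.50, 0.15 and 0.79. Of the 8 genes higher by LIEA, HSPA1A (59.8% GC), HSPA1B (58.8%), P4HB (57.5%), BAG3 (56.9%) and HYOU1 (55.7%) lay above 55%. HSPB1 at 65.5% GC, SDF2L1 at 65.1%, HSF1 at 63.9% and CRELD2 at 60.7% went the other way, with log2 differences of -0.58, -0.99, -0.46 and -0.30. Relative to genes of like GC content, the median of the 45 genes was -0.29. Between the cell lines, both by LIEA, rho with GC content was 0.0607 over the 45 genes. Transcript length gave a rho of -0.0192 with the difference between methods over the 45 genes, against 0.261 over all genes compared.

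**Figure D4:**
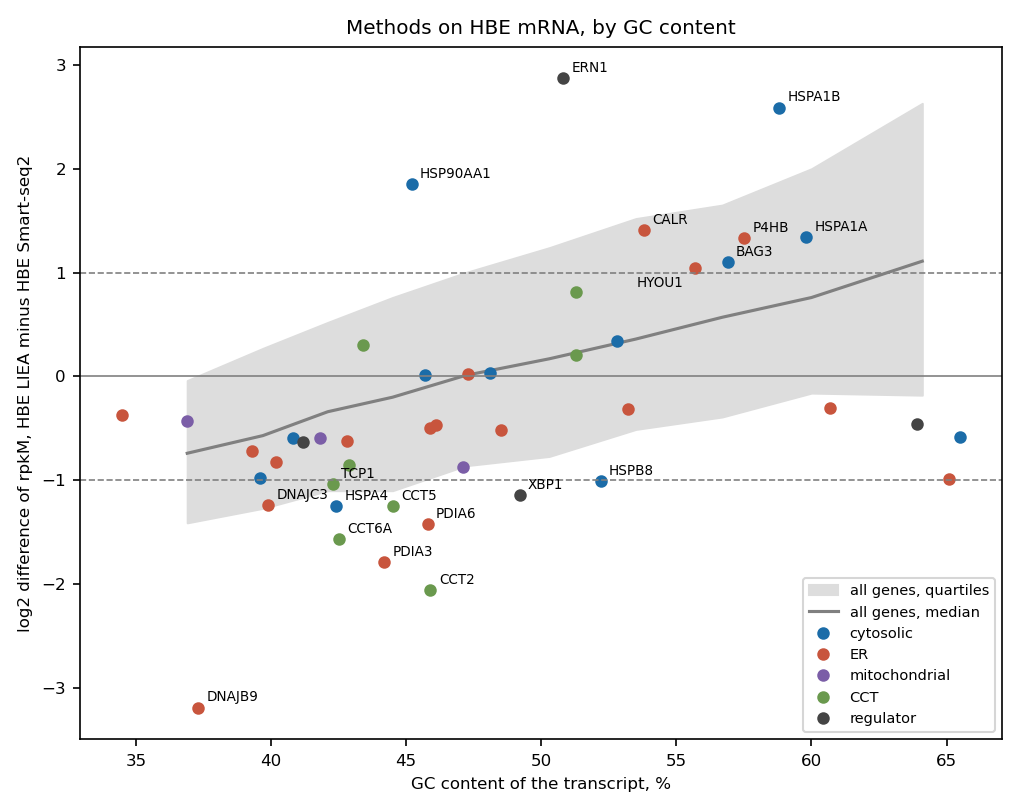
Log2 difference of rpkM, HBE LIEA minus HBE Smart-seq2 (y axis), against the GC content of the transcript in percent (x axis), for the 45 genes by class, with the median and quartiles of all genes in 10 bins of GC content; named points are at least 2-fold apart. The genes below 45% GC have a median of -0.83 and those above 55% a median of 1.04. HSP90AA1, ERN1 and HSPA1B lie above the band of quartiles. A larger number lie below it, among them DNAJB9, CCT2, PDIA3, CCT6A and PDIA6.

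The promoters are shown to place the genes that differed beside their known control elements. RefSeq promoters on GRCh38.p14, 250 bases before to 50 bases after the start, were matched by symbol for 42 of the 45 genes, all but PDIA3, CCT6A and HSF1. A heat shock element, the site of HSF1, was searched on both strands as GAANNTTCNNGAA or TTCNNGAANNTTC, forms that may overlap each other. It was present in the promoters of HSPA8, HSP90AA1, HSP90AB1, DNAJA1 and HSPD1, and in 0.49% of all 35116 promoters. Only exact forms were searched, for this element and those below, so a promoter without a match may still hold another form. In DNAJA1 the match lies after the start, and in HSPD1 a pair of matches overlap. The windows of the HSP90 pair and HSPA8 lie at chr14:102087096-102087156 (minus strand), chr6:44247807-44247867 (plus) and chr11:123062155-123062215 (minus), with the element in capitals:
HSP90AA1: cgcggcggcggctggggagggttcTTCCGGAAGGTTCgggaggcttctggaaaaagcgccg
HSP90AB1: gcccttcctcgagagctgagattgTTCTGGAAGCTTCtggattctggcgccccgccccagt
HSPA8: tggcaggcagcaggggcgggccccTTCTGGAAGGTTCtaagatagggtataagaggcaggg

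The 5 genes with the element had log2 differences from -0.85 to 0.20 between A549 and HBE, none of them 2-fold. Between methods they had -0.59 to 1.85, and HSP90AA1 alone was beyond 2-fold.

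The ER stress response element, bound by ATF6 with NF-Y, was searched on both strands as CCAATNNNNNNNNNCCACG, and its shorter form, ERSE-II, as ATTGGNCCACG. The long form was present in the promoters of HSPA5, HSP90B1, PDIA6, CALR, CANX, CRELD2 and XBP1, and in 0.0769% of all promoters. ERSE-II was present in those of HYOU1, SDF2L1 and HERPUD1, and in 0.0541% of all. The windows of HSPA5, CALR and PDIA6 lie at chr9:125241367-125241433 (minus), chr19:12938360-12938426 (plus) and chr2:10812829-10812895 (minus), and those of HERPUD1 and HYOU1 at chr16:56932001-56932059 (plus) and chr11:119057250-119057308 (minus). Capitals mark the element, which is on the opposite strand in CALR and HYOU1:
HSPA5: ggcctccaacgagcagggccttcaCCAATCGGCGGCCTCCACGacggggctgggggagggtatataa
CALR: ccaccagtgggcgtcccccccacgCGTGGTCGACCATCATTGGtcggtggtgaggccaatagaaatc
PDIA6: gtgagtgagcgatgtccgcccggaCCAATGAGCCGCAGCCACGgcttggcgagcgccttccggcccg
HERPUD1: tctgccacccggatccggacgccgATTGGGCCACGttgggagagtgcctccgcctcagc
HYOU1: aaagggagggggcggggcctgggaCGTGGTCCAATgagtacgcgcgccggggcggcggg

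Genes with the same element differed in direction. The 7 genes with the long form had log2 differences from -0.52 to 0.93 between A549 and HBE, none of them 2-fold, with a median of 0.00. Of the ERSE-II genes, HERPUD1 was higher in A549 by 1.82, HYOU1 lower by -1.26 and SDF2L1 at 0.24 (-0.10 to 0.58) in log2 difference. Between methods the 7 genes had -1.42 for PDIA6 to 1.41 for CALR. A match is a stretch of letters, and no binding was measured.

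The other genes of these pathways, a list of 107 chosen by function with earlier results of these data known, were counted in the same way. Of the 98 compared, 10 were at least 2-fold higher in A549 (10.2%, against 18.0%) and 11 at least 2-fold lower (11.2%, against 20.2%), and the median log2 difference was -0.10. Of the 16 regulators on the list, 5 were higher (31.2%, against 18.0%) and none was lower. PPP1R15A (GADD34), the phosphatase subunit that reverses eIF2α phosphorylation, had a log2 difference of 3.10 (2.82 to 3.39), NUPR1 3.08 (2.36 to 3.87), ATF3 2.53 (2.07 to 3.01) and HSF4 1.60 (1.04 to 2.18). The fifth was DDIT3 (CHOP), a stress-induced transcription factor, at 1.63 (0.75 to 2.59) from 15 and 42 reads. ATF4, the factor upstream of ATF3 and DDIT3, had levels of 7.88 log2 rpkM in HBE LIEA and 7.59 in A549 LIEA, and EIF2AK3 had 2.35 and 1.66.

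These stress genes did not all keep the same order once HBE Smart-seq2 is set beside them. ATF3 had levels of 2.10 log2 rpkM in HBE LIEA, 4.62 in A549 LIEA and 2.55 in HBE Smart-seq2, and NUPR1 had 2.10, 5.18 and 3.04. DDIT3 had 2.47, 4.10 and 2.27 log2 rpkM. For these 3 genes A549 lay above both HBE libraries. PPP1R15A had 3.38, 6.48 and 7.57 log2 rpkM, so that HBE Smart-seq2 exceeded A549 LIEA, and its log2 difference between methods was -4.19 (-4.48 to -3.93).

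**Figure D5:**
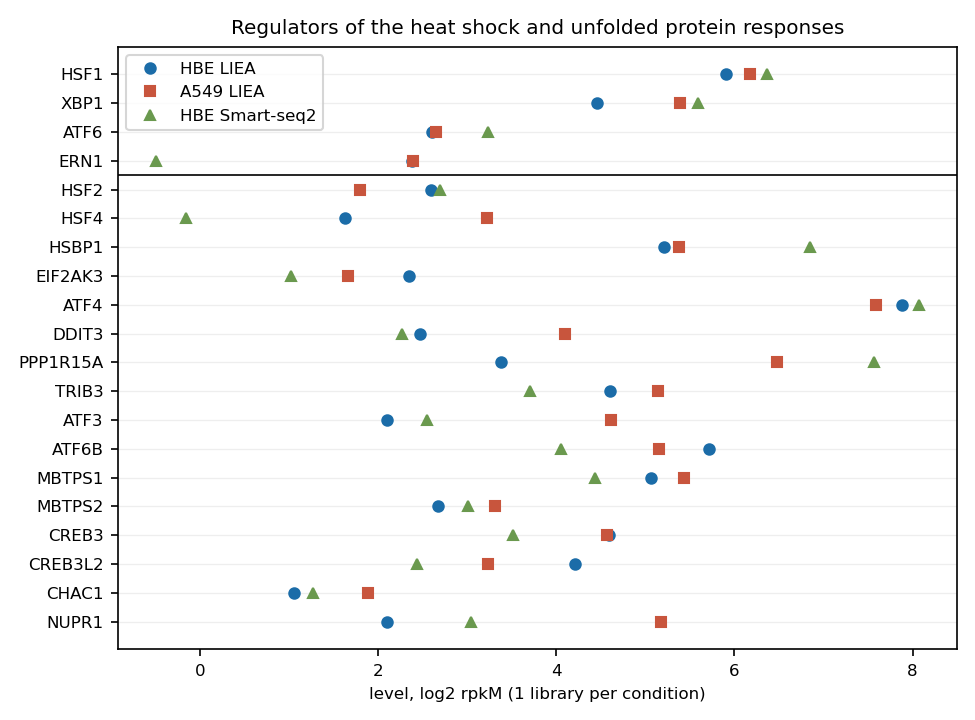
Level in log2 rpkM (x axis) of the 4 regulators among the 45 genes (above the line) and 16 further regulators of both stress responses, in HBE LIEA (circles), A549 LIEA (squares) and HBE Smart-seq2 (triangles), 1 library each. ATF3, NUPR1 and DDIT3 are highest in A549 LIEA, and PPP1R15A differs between the HBE libraries by -4.19.

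Of the 28 cytosolic genes on the list that were compared, 3 were at least 2-fold higher in A549 (10.7%, against 18.0%) and 3 lower (10.7%, against 20.2%). The HSP70 relative HSPA2 had 62 reads in HBE LIEA and 1867 in A549 LIEA, a log2 difference of 5.06 (4.70 to 5.45). Its levels were 2.28 log2 rpkM in HBE LIEA, 7.34 in A549 LIEA and 0.93 in HBE Smart-seq2. In A549 LIEA its level was above that of HSPA5, at 7.05 log2 rpkM, and in both HBE libraries it was below every HSP70 among the 45 genes. The small heat shock protein CRYAB had 0 reads in HBE LIEA, 29 in A549 LIEA and 3 in HBE Smart-seq2. Relative to mapped reads, A549 LIEA was at least 10.7-fold higher than HBE LIEA, taking the floor as 3 reads in that library. HSPA6, the strictly stress-inducible HSP70, had 2, 5 and 7 reads in HBE LIEA, A549 LIEA and HBE Smart-seq2. DNAJA4 and HSPA4L were lower in A549. DNAJA4 had 98 reads in HBE LIEA and 2 in A549 LIEA, a log2 difference of -5.47 (-8.53 to -3.57). HSPA4L had 81 and 15 reads, a log2 difference of -2.28 (-3.19 to -1.48).

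Of the 9 mitochondrial chaperones, cofactors and proteases on the list, 4 were at least 2-fold lower in A549 (44.4%, against 20.2%) and none was higher by that much. CLPP, a matrix protease, had a log2 difference of -1.23 (-1.39 to -1.08), GRPEL1, the nucleotide exchange factor of HSPA9, -1.23 (-1.51 to -0.95), and TRAP1, the mitochondrial HSP90, -1.03 (-1.13 to -0.93). The fourth was DNAJC19, a part of the import motor, at -1.83 (-2.67 to -1.07) from 71 and 18 reads. TRAP1 lay close to the 2-fold limit. The list was counted on the deposited scale only, and centring moves log2 differences between the lines by 0.13. The protease HTRA2 and the protease subunit CLPX went the other way, with log2 differences of 0.69 and 0.40 and counting intervals above 0. HSPA9 itself was at -0.06 (-0.17 to 0.05). Among ER genes, ERO1L, the oxidase that recharges P4HB, was lower by a log2 difference of -1.05 (-1.33 to -0.77) while P4HB was higher by 0.81. The ubiquitin-conjugating enzyme UBE2J1 of ER-associated degradation was lower by -1.16 (-1.48 to -0.84). Of the 14 genes of ER-associated degradation compared, 1 was at least 2-fold higher (7.14%, against 18.0%) and 1 lower (7.14%, against 20.2%). Their median log2 difference was 0.48.

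Between methods, 20 of 97 genes on the list were at least 2-fold higher by LIEA (20.6%, against 28.1%) and 23 at least 2-fold lower (23.7%, against 21.9%), with a median log2 difference of -0.28. SYVN1 (HRD1), the ubiquitin ligase that SEL1L holds, had 5.08 log2 rpkM in HBE LIEA and 1.14 in HBE Smart-seq2, a log2 difference of 3.95 (3.57 to 4.34). LONP1, a mitochondrial protease, had 3.18 (3.02 to 3.34), DNAJB2 3.13 (2.77 to 3.51), NPLOC4 2.38 (2.21 to 2.55) and AHSA2 2.29 (1.97 to 2.62). After PPP1R15A, the lowest by LIEA were VIMP (selenoprotein S, of ER-associated degradation) at -2.98 (-3.30 to -2.67), PFDN4 at -2.74 (-3.15 to -2.36), SERP1 at -2.49 (-2.73 to -2.25) and VBP1 at -2.49 (-2.82 to -2.17). PFDN4 and VBP1 are subunits of prefoldin, which hands actin and tubulin to CCT, and 3 of the 6 prefoldin subunits were at least 2-fold lower by LIEA (against 21.9% of all genes), as were 4 of the 8 CCT subunits. PFDN5, by contrast, had a log2 difference of 1.08 (0.86 to 1.31).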

How the data were processed

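The authors mapped Ion Torrent and Illumina reads with FANSe2 to RefSeq-RNA, merged splice variants and deposited log2 rpkM per gene, with no pseudocount and without genes that had no reads. The study lists the FANSe2 options it used for each platform, but what they mean for strand or for reads with several matches is not explained in the sources used here, and the genome build named in the labels is hg19.

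From these values, whole reads were recovered for all 18856 genes (100%). The ratio of totals came from the most frequent difference between libraries. For the total, the highest integer was taken that left over 70% of 300 genes with integer lengths, and 95% had them. A whole factor of 1 to 12 per gene was set from GENCODE release 44 transcript lengths and was above 1 for 1549 genes. Its weights were adjusted after the data were seen, so that recovered reads stayed below the totals (99.01, 99.01 and 99.11%). The recovery of totals, and of lengths up to a whole factor, was tested on data simulated from the recovered reads and lengths. The choice of the factor was not tested. Left out were 4 rows per library with date-like names and 1589 blank rows of HBE Smart-seq2.

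Differences are of log2 rpkM, for genes listed in both libraries with at least 10 reads in 1 of them. Counting intervals are exact binomial at 95%, and shares of reads have Wilson intervals. GC content came from the GENCODE transcript nearest in length, for 94.05% of genes. Alternatives were centring, TPM, a pseudocount of 1, 10 GC bins, no filter, rpkM of at least 5, folds of 1.5 and 3, at least 100 reads in both libraries (chosen after seeing the data), and leaving out HSPA1A and HSPA1B. All 45 members are given. Of the other genes, the 5 largest differences each way with at least 100 reads are named in each comparison. DDIT3, DNAJC19, HTRA2, CLPX, PFDN5, CRYAB, HSPA6, DNAJA4, HSPA4L, ATF4 and EIF2AK3 were added after their values were seen. The members and lists were chosen with earlier results of these data known, and ERSE-II was searched after seeing them. Both comparisons share HBE LIEA. The second LIEA replicate and the bulk mRNA-seq were not analysed here. Python 3.11.15, numpy 2.4.6, pandas 2.3.3, scipy 1.17.1 and matplotlib 3.10.9 were used.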

Additional observations from a re-analysis of the deposited data

How the results depend on the processing

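Of 429 values recomputed under an alternative, 247 stayed within their limits, 182 moved beyond them, and 0 of the members beyond 2-fold changed direction, whereas smaller differences named in the text did. Between the cell lines, the count of members higher in A549 was 7 at 1.5-fold and 1 at 3-fold, and of those lower 8 at 1.5-fold and 0 at 3-fold, since a fold limit changes what is counted. The shares of all genes past 1.5-fold and 3-fold were not taken, here or between methods. Between methods, centring each library on the median of shared genes gave 4 higher, 18 lower and a median log2 difference of -0.89, against -0.33 over all genes compared. Subtracting the median of genes of like GC content gave 4 higher, 12 lower and a median of -0.29, against 0.00 over all genes. The shares of all genes past 2-fold were not taken under these 2 rescalings. With at least 100 reads in both libraries, chosen after seeing the data, 2 were higher in A549. Between methods at 3-fold, 3 were higher and 3 lower, and at 1.5-fold 21 were lower. Without division by length the SD of the 8 CCT subunits in HBE Smart-seq2 was 1.28. Depth limits HSPB8, DNAJB9 and HSPA13 most. With a factor of 2 for DNAJB9, chosen after seeing the data, 45 members instead of 44 had at least 10 reads in HBE LIEA. No paired analysis was possible because there are no replicates.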

Other observations

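Some genes outside the 45 and the pathway list carry the same promoter elements, and were picked after their values were seen. SERPINH1, the collagen chaperone of the ER, has the heat shock element and had levels of 7.54 log2 rpkM in HBE LIEA, 6.48 in A549 LIEA and 6.10 in HBE Smart-seq2. PRKCSH, a subunit of the glucosidase that trims glycans before calnexin binding, has it too, with 7.67, 7.05 and 4.85 log2 rpkM. FICD, the enzyme that modifies HSPA5, has the long ER stress response element, with 1.40, 2.22 and 0.44 log2 rpkM. NUCB1, a calcium-binding protein of the Golgi, has ERSE-II, with 5.93, 7.04 and 4.66 log2 rpkM. Of the ERSE-II genes named in the text, NUCB1 and HERPUD1 had A549 LIEA above both HBE libraries and HYOU1 had it below both.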
